A study of Mus musculus with 29 samples.

Results

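A set of 10 genes commonly used as macrophage markers was followed in cultures of the stromal vascular fraction (SVF), the cells other than adipocytes that collagenase and dispase set free from white fat. The members were Lyz2, Cd68, Adgre1, Csf1r, C1qa, C1qb, Mrc1, Cd14, Trem2 and Tyrobp. They were chosen by gene symbol, with earlier results of these data known. Each of the 10 was found by its Ensembl ID among 56953 features, and each was among the 8853 genes that passed the filter on low counts. The study cultured crude SVF of inguinal (iWAT) and perigonadal (pgWAT) fat of C57BL6/J mice to compare stromal cells between depots and sexes. Each library was prepared with Smart-seq3 chemistry from the pooled RNA of 1 culture well.

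Macrophages are tissue phagocytes that in fat clear dying adipocytes and lipid. They depend on the growth factor receptor encoded by Csf1r, take up material through receptors such as those of Mrc1 and Cd14, and break it down in lysosomes, where the Cd68 protein sits. Lyz2 encodes the lysozyme of myeloid cells, an enzyme that cuts bacterial cell walls. C1qa and C1qb encode chains of C1q, the recognition part of the first complement component. Trem2 encodes a lipid-sensing receptor that signals through the adaptor encoded by Tyrobp, and Adgre1 encodes F4/80, a surface antigen of mouse macrophages.

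The 29 libraries came from untreated cells of 4 groups, 9 of iWAT female, 10 of iWAT male, 6 of pgWAT female and 4 of pgWAT male mice, all adult, and all wells had been kept for 4 days in medium with 1 nM basic fibroblast growth factor (bFGF). The group sizes stated in the study differ from those of the labels, and the labels were followed. The cultures were not sorted, so any attached cell of the fraction could contribute. The study describes wells as technical replicates of a few independent experiments and the labels do not tie wells to experiments, so p-values below measure the spread between wells. Replicate numbers only name libraries, in accession order, and do not pair them across groups. Total counts per library ranged from 315316 to 1102234, and 3 counts, the limit that a count of 0 allows, came to 2.72 to 9.51 CPM (counts scaled to library size) of the total, for counting error only. Tbx15, an iWAT marker, and Tcf21, a pgWAT marker, matched the labelled depot in 29 of 29 libraries. Xist and the summed counts of 4 Y-linked genes matched the labelled sex in 24 libraries and went against it in 5, all of pgWAT. The libraries labelled pgWAT male 2 and 4 held 24 and 60 Xist counts and 1 and 0 Y-linked counts. The libraries labelled pgWAT female 1, 2 and 3 held 10, 23 and 26 Y-linked counts and 7, 0 and 0 Xist counts. The labels put these 3 in well column 10, and pgWAT male 2 and 4 in column 9. The counts of members called between depots are given with and without them, as are those of most gene lists.

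In the depot comparison 7 of the 10 members were higher in pgWAT than in iWAT, and none was lower (edgeR quasi-likelihood F test, Benjamini-Hochberg FDR below 0.05, both sexes weighted equally). The 7 were C1qa, C1qb, Trem2, Lyz2, Cd68, Tyrobp and Csf1r. Of all genes tested 38.1% were called in this comparison and 20.2% were called higher in pgWAT. The median log2 fold change of the 10 members was 1.11, against 0.01 over all genes tested. Adgre1, Mrc1 and Cd14 did not pass. No member had ranges that did not overlap between the depots, against 1.47% of tested genes that were higher in every pgWAT library than in any iWAT library. Bulk RNA cannot tell more macrophages from more of a transcript per macrophage. Within the libraries labelled male 6 members were called (Lyz2, Cd68, C1qa, C1qb, Trem2 and Tyrobp; 20.3% of genes), and within those labelled female 6 (Lyz2, Cd68, Csf1r, C1qa, C1qb and Trem2; 26.8% of genes).

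**Figure D1:**
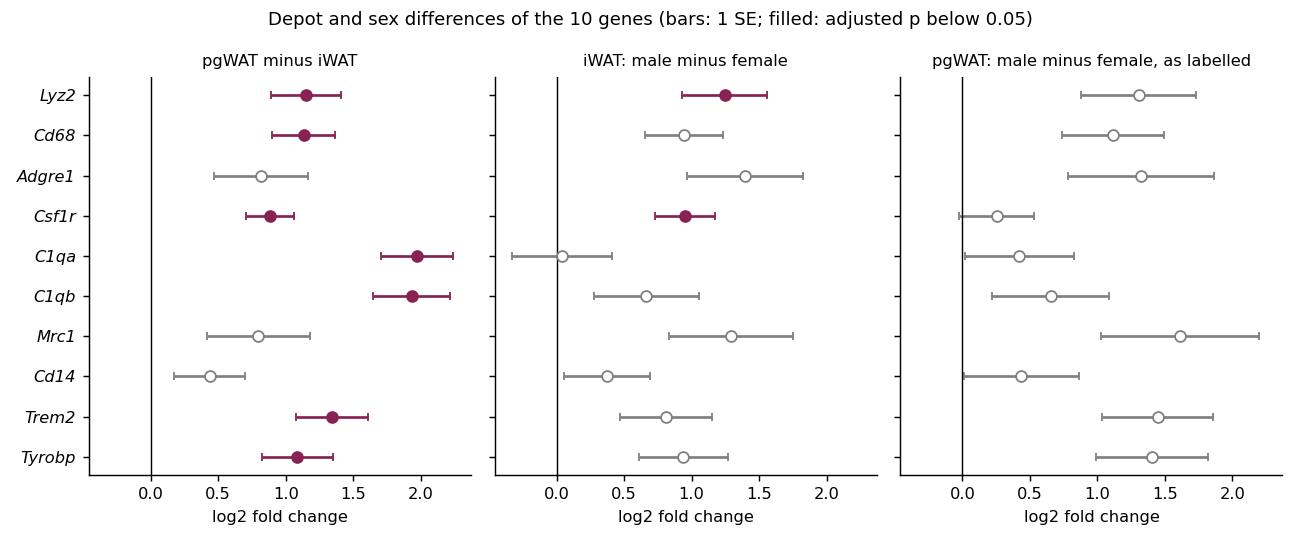
Log2 fold changes of the 10 genes (horizontal axis) between depots and between sexes within each depot, with bars of 1 SE from the edgeR fit over 29 libraries. Filled points passed an adjusted p of 0.05, which 7 genes did between depots, 2 between the iWAT sexes and 0 between the pgWAT sexes as labelled.

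In iWAT, where each library matched its sex label, Lyz2 and Csf1r were higher in male than in female cultures, 2 of the 10 members against 3.22% of genes called in all and 1.08% called higher in male. Each of the 10 fold changes was above 0, with a median of 0.94 on the log2 scale against 0.01 over all genes. Lyz2 and Tyrobp had ranges that did not overlap between the iWAT sexes, against 0.192% of tested genes. Tyrobp did not pass the test there, with a log2 fold change of 0.94 (SE 0.33, FDR 0.12). In pgWAT, compared as labelled, 0 of 10 members were called, against 0.0113% of genes, and 6 members had an unadjusted p under 0.05, against 8.35% of genes. DESeq2 called 0 of the 7 members to which it gave an adjusted p, and limma-voom called 0 of 10. The interaction, which tests whether the sex difference itself differed between depots, called 0 members against 0.181% of genes, and 0 members had an unadjusted p under 0.05. DESeq2 and limma-voom called 0 members for the interaction as well, with 0 and 1 at an unadjusted p under 0.05. All these fits used the pgWAT sex labels, which 5 libraries went against. Without those libraries 8 members were called between the pgWAT sexes (5.63% of genes) and 6 for the interaction (2.56% of genes). Between the iWAT sexes 7 were then called, Tyrobp among them (5.84% of genes). With the 2 iWAT groups fitted alone, 6 of 8 tested members were called between the iWAT sexes, again with Tyrobp (5.68% of genes).

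Lyz2 was the highest member in each of the 29 libraries, in CPM and in CPM per kb. It ranged from 504 to 925 CPM in iWAT female (median 742), from 1222 to 2164 in iWAT male (median 1685) and from 557 to 2871 in pgWAT female (median 1250). In pgWAT male the 4 libraries held 6445, 954, 6871 and 881 CPM. The libraries labelled pgWAT male 1 and 3 were the 2 highest of the 29, and the other two lay inside the range of the iWAT libraries. The group means were 704 ± 160 (SD, n = 9), 1670 ± 313 (n = 10), 1533 ± 1079 (n = 6) and 3788 ± 3319 (n = 4) CPM in the same order. In order of the means the neighbours pgWAT female and iWAT male differed by less than the pgWAT female SD. The log2 fold change of pgWAT over iWAT was 1.15 (SE 0.26, FDR 0.000566), 5 pgWAT libraries of 10 exceeded the mean of iWAT, and 4 lay above all 19 iWAT libraries. Between the iWAT sexes the log2 fold change was 1.25 (SE 0.32, FDR 0.0207), with 10 of 10 male libraries above all 9 female ones. Between the pgWAT sexes as labelled it was 1.31 (SE 0.43, FDR 0.33).

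**Figure D2:**
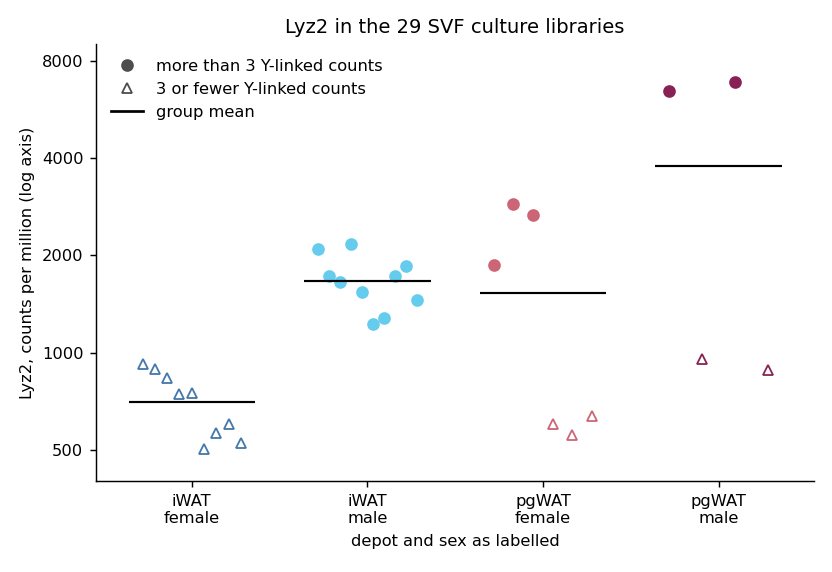
Lyz2 level in CPM (log axis) of each library by depot and labelled sex, with the group mean as a line. Filled circles are libraries with more than 3 Y-linked counts and open triangles those with 3 or fewer, and in pgWAT the circles lie between 1864 and 6871 CPM and the triangles between 557 and 954 CPM.

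Within pgWAT the level of Lyz2 was also set beside the Y-linked counts. The 5 pgWAT libraries with more than 3 Y-linked counts were male 1 and 3 and female 1, 2 and 3, and they held 1864 to 6871 CPM of Lyz2. The other 5, male 2 and 4 and female 4, 5 and 6, held 557 to 954 CPM. These sets were read from the data and not from the labels, so the ranges are a description without a test. The same sets were apart for Cd68 (195 to 592 against 77.2 to 109 CPM), C1qa (64.1 to 130.4 against 16.3 to 52.0), C1qb (92.9 to 212 against 19.5 to 65.8) and Tyrobp (41.6 to 281 against 22.8 to 40.2). They overlapped for Adgre1, Csf1r, Mrc1, Cd14 and Trem2. The share of all genes with ranges apart between these sets was not counted.

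Lyz2 has a near-identical neighbour, Lyz1, the lysozyme of Paneth cells in the gut. Their coding sequences had the same length, 444 bases, and differed at 22 of them (GENCODE M21 transcripts). A stretch of 90 coding bases, positions 43 to 132 from the start codon, are shown because they hold 13 of the 22 differing bases, in capitals.
Lyz2: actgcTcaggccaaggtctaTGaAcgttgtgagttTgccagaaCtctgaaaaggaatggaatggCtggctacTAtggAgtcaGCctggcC
Lyz1: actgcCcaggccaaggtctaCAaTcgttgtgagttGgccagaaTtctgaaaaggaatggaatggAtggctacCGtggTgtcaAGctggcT
Of the 1286 stretches of 31 bases in the Lyz2 transcript, 422 (32.8%) also occurred in Lyz1, so reads from them could be split between both genes. Lyz1 itself was low, with group means of 2.39 CPM in iWAT female, 13.4 in iWAT male, 24.1 in pgWAT female and 28.9 in pgWAT male. It was called between depots (log2 fold change 2.09, SE 0.37, FDR 2.77e-05) and between the iWAT sexes (2.25, SE 0.53, FDR 0.0122). With the counts of both genes summed, the Lyz2 depot difference was 1.16 on the log2 scale. The 8 members other than Lyz2 and Csf1r shared no stretch of 31 bases on the same strand with another gene, and Csf1r shared 0.38% of its stretches, in stretches found in many genes.

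The bases before the start site are printed for this pair because both moved together, and for C1qb because it had one of the largest depot differences. They come from RefSeq on GRCm38.p6, 250 bases each, read on the minus strand 5′ to 3′ from chr10:117282273-117282522 for Lyz2, chr10:117292869-117293118 for Lyz1 and chr4:136886201-136886450 for C1qb. Capitals mark matches to GGAAGT on either strand, a core of the sites bound by PU.1, the transcription factor of myeloid cells that Spi1 encodes.
Lyz2: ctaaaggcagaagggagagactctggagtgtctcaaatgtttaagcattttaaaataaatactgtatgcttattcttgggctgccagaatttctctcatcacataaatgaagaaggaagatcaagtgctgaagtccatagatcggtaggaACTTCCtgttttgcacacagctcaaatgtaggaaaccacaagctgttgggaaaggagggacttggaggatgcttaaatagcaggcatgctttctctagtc
Lyz1: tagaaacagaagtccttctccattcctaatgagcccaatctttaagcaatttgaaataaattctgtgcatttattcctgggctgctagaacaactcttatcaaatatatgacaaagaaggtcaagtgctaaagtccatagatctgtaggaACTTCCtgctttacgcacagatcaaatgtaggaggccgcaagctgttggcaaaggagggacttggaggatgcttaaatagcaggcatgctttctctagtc
C1qb: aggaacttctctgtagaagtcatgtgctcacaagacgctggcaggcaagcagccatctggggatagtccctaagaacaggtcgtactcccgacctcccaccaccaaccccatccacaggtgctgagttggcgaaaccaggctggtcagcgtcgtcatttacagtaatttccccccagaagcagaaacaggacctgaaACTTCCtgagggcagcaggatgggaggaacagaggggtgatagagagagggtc
The match began 100 bases before the start in both lysozyme genes and 53 bases before it in C1qb. In the 100 bases nearest the start the lysozyme promoters were identical at 92 positions. A promoter was given for 5 members, of which Lyz2, C1qb and Mrc1 held a match and Cd68 and Trem2 did not, and 19.7% of 32851 promoters of the same length held it. A match is a string of letters and not a measured site.

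Set beside the sum of the other 9 members, Lyz2 was the larger quantity in each library. The sum ranged from 178 to 297 CPM in iWAT female, from 315 to 496 in iWAT male and from 249 to 895 in pgWAT female, and was 1556, 360.3, 1733 and 343.5 in the 4 pgWAT male libraries. The 2 highest were again pgWAT male 1 and 3, and the iWAT sexes did not overlap. The ratio of Lyz2 to that sum was 3.19 ± 0.534 (SD, n = 9) in iWAT female, 4.16 ± 0.46 (n = 10) in iWAT male, 2.80 ± 0.584 (n = 6) in pgWAT female and 3.33 ± 0.84 (n = 4) in pgWAT male. The 4 ratios in pgWAT male were 4.14, 2.65, 3.965 and 2.57. Over the 29 libraries the ratio ran from 1.995 to 4.85, a narrower range than that of Lyz2 itself.

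**Figure D3:**
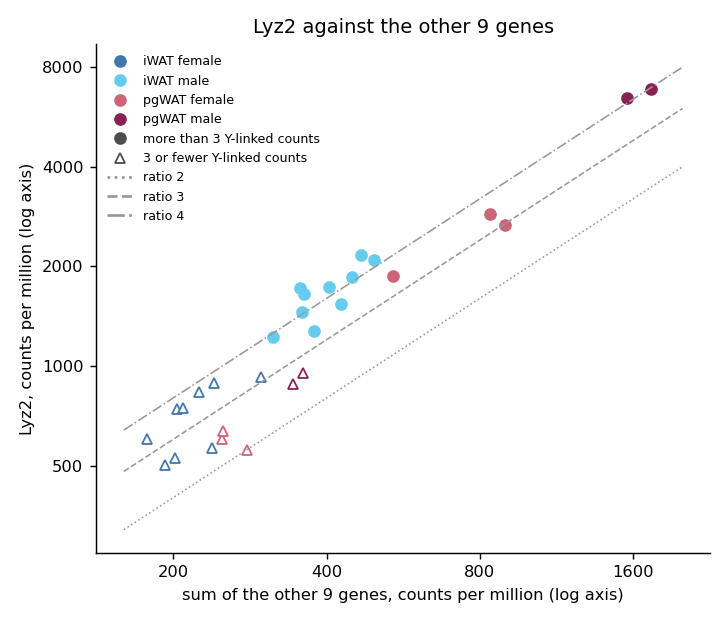
Lyz2 (vertical) against the sum of the other 9 genes (horizontal), both in CPM on log axes, 1 symbol per library, with lines at ratios of 2, 3 and 4. Circles have more than 3 Y-linked counts, and pgWAT male 1 and 3 stand at the upper right with 6445 and 6871 CPM of Lyz2.

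C1qa and C1qb had the largest depot differences and did not pass the test between the iWAT sexes. C1qa ranged from 13.1 to 25.2 CPM in iWAT female (median 15.9), from 4.51 to 42.2 in iWAT male (median 14.4) and from 16.3 to 130.4 in pgWAT female (median 44.65), and the pgWAT male libraries held 111, 52.0, 117 and 38.65. Of the 10 pgWAT libraries 9 lay above the iWAT mean and 6 above all 19 iWAT libraries. The log2 fold change was 1.97 (SE 0.27, FDR 4.4e-07). C1qb ranged from 11.2 to 27.1 CPM in iWAT female (median 21.6), from 15.8 to 62.5 in iWAT male (median 33.4) and from 19.5 to 169.5 in pgWAT female (median 60.55), and the pgWAT male libraries held 212, 65.8, 193 and 44.0. The log2 fold change was 1.93 (SE 0.29, FDR 1.73e-06), and 8 pgWAT libraries of 10 exceeded the mean of iWAT. The iWAT sex comparison of C1qa gave 0.04 (SE 0.37, FDR 0.977), with a 95% interval from -0.69 to 0.77, and C1qb gave 0.66 (SE 0.39, FDR 0.43). Relative to Cd68 the sum of C1qa and C1qb was 0.582 ± 0.255 (SD, n = 9) in iWAT female, 0.349 ± 0.160 (n = 10) in iWAT male, 0.784 ± 0.294 (n = 6) in pgWAT female and 0.740 ± 0.249 (n = 4) in pgWAT male, with overlapping ranges.

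The other genes of the C1 complex went the same way between depots, and 4 of 4 were called, against 38.1% of all genes. C1qc, the remaining C1q chain, had group means of 10.2, 11.0, 27.7 and 71.3 CPM in iWAT female, iWAT male, pgWAT female and pgWAT male, with a log2 fold change of 1.97 (SE 0.28, FDR 9.77e-07). Serping1, the C1 inhibitor, gave 2.88 (SE 0.21, FDR 2.33e-13), and the protease genes C1s1 and C1ra gave 0.96 (SE 0.18, FDR 9.26e-05) and 0.80 (SE 0.19, FDR 0.00135). Serping1, C1s1 and C1ra are made by fibroblasts as well, and their means were 109, 138 and 105 CPM in iWAT female and 1075, 326 and 260.1 CPM in pgWAT female. None of the 4 was called between the iWAT sexes. Without the 5 libraries against their sex label 3 of the 4 were called between depots (23.7% of genes).

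Cd68 was next to Lyz2 in mean CPM per kb in both depots. It ranged from 47.5 to 117 CPM in iWAT female (median 63.1), from 84.3 to 196 in iWAT male (median 150) and from 77.2 to 258 in pgWAT female (median 143), and the pgWAT male libraries held 549, 109, 592 and 107. As for Lyz2, male 1 and 3 stood above the rest and the groups overlapped. The depot log2 fold change was 1.13 (SE 0.23, FDR 0.000218), and the iWAT sex difference was 0.95 (SE 0.29, FDR 0.0635), with 8 of 10 male libraries above all 9 female ones. Of 8 lysosomal genes, which all cells use, 7 were higher in pgWAT (20.2% of all genes) and none passed between the iWAT sexes (3.22%). Leaving out the 5 libraries against their sex label, 6 were higher in pgWAT (12.2% of genes). Then 1, Ctsd, was higher in iWAT male (0.50, SE 0.12, FDR 0.00978), against 2.4% of genes. The protease gene Ctsd gave 0.97 (SE 0.17, FDR 2.24e-05), the glycosidase gene Hexa 0.78 (SE 0.13, FDR 1.12e-05) and the membrane protein Lamp1 0.67 (SE 0.18, FDR 0.00376).

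Csf1r, the receptor on which macrophage survival depends, showed another pattern. It ranged from 17.35 to 34.45 CPM in iWAT female (median 24.7), from 33.2 to 82.2 in iWAT male (median 43.3) and from 35.1 to 78.2 in pgWAT female (median 59.6), and the pgWAT male libraries held 73.0, 39.8, 125 and 38.65. Each pgWAT female library lay above each iWAT female one, while pgWAT male 2 and 4 lay among the iWAT male libraries. The share of all genes with such ranges between the female groups was not counted. Of these libraries, pgWAT female 1, 2 and 3 and pgWAT male 2 and 4 went against their sex label. The depot log2 fold change was 0.88 (SE 0.18, FDR 0.000152), it was 1.23 (SE 0.25, FDR 0.000321) within the libraries labelled female, and 0.53 (SE 0.25, FDR 0.132) within those labelled male. The difference between these was the interaction, -0.70 (SE 0.36, FDR 0.601). The iWAT sex difference was 0.95 (SE 0.22, FDR 0.0106). Its ligands did not pass between depots. Csf1 had means of 559.7, 604.5, 571 and 563 CPM in iWAT female, iWAT male, pgWAT female and pgWAT male (log2 fold change -0.04, SE 0.11, FDR 0.826), and Il34 had means from 6.24 to 12.2 CPM (0.58, SE 0.39, FDR 0.258).

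Trem2 and its adaptor Tyrobp both passed between depots. Trem2 ranged from 13.6 to 45.7 CPM in iWAT female (median 24.9), from 29.1 to 62.6 in iWAT male (median 43.2) and from 13.0 to 104 in pgWAT female (median 39.5), and the pgWAT male libraries held 198, 46.8, 269 and 33.3. Its depot log2 fold change was 1.34 (SE 0.27, FDR 0.000136). Tyrobp ranged from 17.0 to 42.1 CPM in iWAT female (median 33.4), from 46.9 to 101 in iWAT male (median 55.9) and from 22.8 to 128 in pgWAT female (median 40.9), and the pgWAT male libraries held 281, 29.45, 262 and 39.7. Its depot log2 fold change was 1.09 (SE 0.26, FDR 0.00136). For both genes male 1 and 3 were the 2 highest libraries, and 4 and 3 pgWAT libraries lay above all iWAT ones. Apoe, a lipid carrier that TREM2 binds, was the 1 gene of 4 in that pathway list tested with all 29 libraries, and gave 2.33 (SE 0.26, FDR 1.04e-08). Its means were 17.6 CPM in iWAT female and 115 CPM in pgWAT female. Syk, Plcg2 and Hcst, which act below TYROBP-type adaptors or pair with their receptors, were too low to test with all 29 libraries. Without the libraries against their sex label 3 of the 4 genes of the list were tested. Of these 3, 1 was higher between depots (23.7% of genes called) and 2 between the pgWAT sexes (5.63%). Within the libraries labelled male all 3 were higher in pgWAT (9.16%), and within those labelled female 1 was (18.3%).

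The remaining surface receptors did not pass between depots or between the iWAT sexes with all 29 libraries. Without the libraries against their sex label Adgre1 and Mrc1 were called between the iWAT sexes. Adgre1 ranged from 3.72 to 17.5 CPM in iWAT female (median 11.2), from 11.7 to 42.9 in iWAT male (median 28.2) and from 0 to 45.6 in pgWAT female (median 11.6), and the pgWAT male libraries held 59.05, 5.20, 115 and 16.1. Its single count of 0, in pgWAT female 6, allows up to 9.51 CPM. The depot log2 fold change was 0.81 (SE 0.35, FDR 0.0644) and the iWAT sex difference 1.39 (SE 0.43, FDR 0.0654), with 10 of 10 male libraries above the female mean. Mrc1, the mannose receptor, ranged from 1.54 to 12.4 CPM in iWAT female (median 3.40), from 5.96 to 17.6 in iWAT male (median 11.8) and from 0 to 21.7 in pgWAT female (median 6.92), and the pgWAT male libraries held 57.3, 5.20, 30.6 and 7.51. The 0, in pgWAT female 4, allows up to 4.17 CPM. The depot log2 fold change was 0.80 (SE 0.38, FDR 0.1005), and the iWAT sex difference was 1.29 (SE 0.46, FDR 0.128).

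Cd14, the co-receptor for bacterial lipopolysaccharide, varied least between groups. It ranged from 5.96 to 17.2 CPM in iWAT female (median 9.05), from 6.23 to 22.6 in iWAT male (median 10.6) and from 4.15 to 25.1 in pgWAT female (median 13.2), and the pgWAT male libraries held 15.6, 6.93, 29.2 and 18.25. The depot log2 fold change was 0.44 (SE 0.26, FDR 0.2035), with a 95% interval from -0.08 to 0.95. Of 4 other genes of its pathway 3 were tested, and all 3 were higher in pgWAT, against 20.2% of all genes. With the 5 libraries against their sex label left out 2 of the 3 were (12.2% of genes), and Tlr4 was at 0.23 (SE 0.32, FDR 0.654). Lbp, the carrier protein for lipopolysaccharide, gave 2.57 (SE 0.31, FDR 3.73e-08), Ly96, the partner of the receptor, 0.82 (SE 0.18, FDR 0.000629), and the receptor gene Tlr4 0.64 (SE 0.25, FDR 0.0377). Of the mannose receptor family 2 of 3 genes were tested and both were higher in pgWAT (20.2% of all genes). Pla2r1 gave 0.85 (SE 0.27, FDR 0.0113) and Mrc2, which fibroblasts express, 0.68 (SE 0.15, FDR 0.000394). Without the same 5 libraries Mrc2 alone was called, with Pla2r1 at 0.38 (SE 0.34, FDR 0.449).

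**Figure D4:**
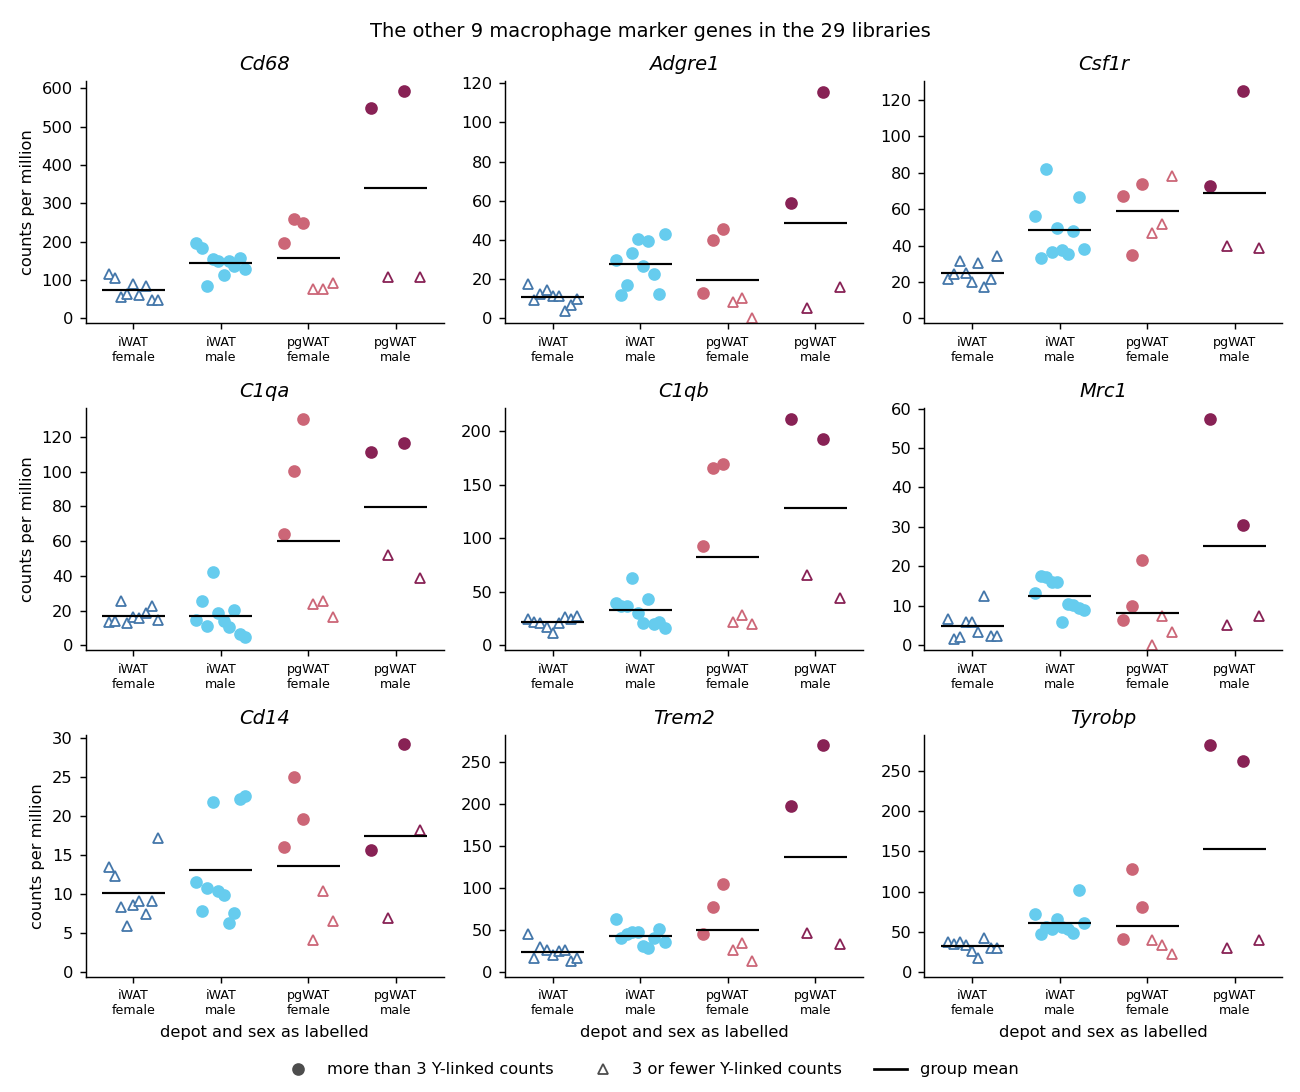
CPM of the other 9 genes in each library (linear axes that differ between panels) by depot and labelled sex, with the group mean as a line. Circles are libraries with more than 3 Y-linked counts, triangles the others, and pgWAT male 1 and 3 are the 2 highest libraries for Cd68, Trem2 and Tyrobp.

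Per kilobase of transcript the order of the members was nearly the same in both depots. Over the 19 iWAT libraries the means ran from Lyz2 (921 CPM per kb) through Cd68 (91.05), Tyrobp (84.3), Trem2 (31.5), C1qb (25.2), C1qa (16.2), Csf1r (7.95), Cd14 (7.13) and Adgre1 (6.07) to Mrc1 (1.65). Over the 10 pgWAT libraries they ran from Lyz2 (1850) through Cd68 (187.5), Tyrobp (170), C1qb (93.05), Trem2 (77.9), C1qa (65.2), Csf1r (13.4), Adgre1 (9.66) and Cd14 (9.24) to Mrc1 (2.78). The neighbours Cd68 and Tyrobp, and Csf1r, Cd14 and Adgre1, lay within the spread of single libraries. The length was that of the longest principal transcript of each gene.

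The depot differences depended on which libraries were compared. Without the 5 libraries whose sex-linked transcripts went against the label, the same 7 members were called between depots (23.7% of genes), with Lyz2 at 0.86 (SE 0.13, FDR 4.59e-06). Within libraries labelled male, all of which then held Y-linked counts, 9 members were called (9.16% of genes), with 1.97 for Lyz2 (SE 0.17, FDR 9.47e-10), 2.66 for C1qa and 2.57 for C1qb. Within libraries labelled female only Csf1r was called, 1.202 (SE 0.26, FDR 0.000966), against 18.3% of genes, and Lyz2 was at -0.25 (SE 0.18, FDR 0.375) and C1qa at 0.40 (SE 0.36, FDR 0.496). That fit held 2 pgWAT male and 3 pgWAT female libraries.

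Between the pgWAT sexes the same 24 libraries gave 8 called members (5.63% of genes), all but Csf1r and Cd14, with log2 fold changes from 2.30 for C1qa to 3.52 for Mrc1, and 3.45 for Lyz2 (SE 0.24, FDR 1.26e-11). Between the iWAT sexes 7 were called (5.84% of genes), on the same 10 male and 9 female libraries, with an SE of 0.12 for Lyz2. They were Lyz2, Cd68, Adgre1, Csf1r, Mrc1, Trem2 and Tyrobp, without the C1q genes and Cd14. The interaction then called 6 members (2.56% of genes), with 2.22 for Lyz2 (SE 0.26, FDR 1.43e-06), 2.38 for C1qb, 2.27 for C1qa, 2.31 for Trem2, 2.04 for Tyrobp and 1.85 for Cd68. Csf1r was at -0.16 there (SE 0.36, FDR 0.936).

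Without pgWAT male 1 and 3, a choice made after their values were seen, 3 members were called between depots (35.7% of genes). C1qa stood at 1.56 (SE 0.30, FDR 9.25e-05), C1qb at 1.31 (SE 0.31, FDR 0.000935) and Csf1r at 0.47 (SE 0.18, FDR 0.0362). Lyz2 was then at 0.12 (SE 0.23, FDR 0.724), Cd68 at 0.30, Trem2 at 0.44, Tyrobp at 0.03, Mrc1 at -0.15 and Adgre1 at -0.23. In this comparison the calls of Lyz2, Cd68, Trem2 and Tyrobp rested on these 2 libraries together, and leaving out either alone kept 7 calls. With both left out the pgWAT male group held only male 2 and 4, whose sex-linked counts went against their label. The part of that label conflict in the lost calls was not tested. Within the libraries labelled female the same fit called 7 members (27.3% of genes).

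**Figure D5:**
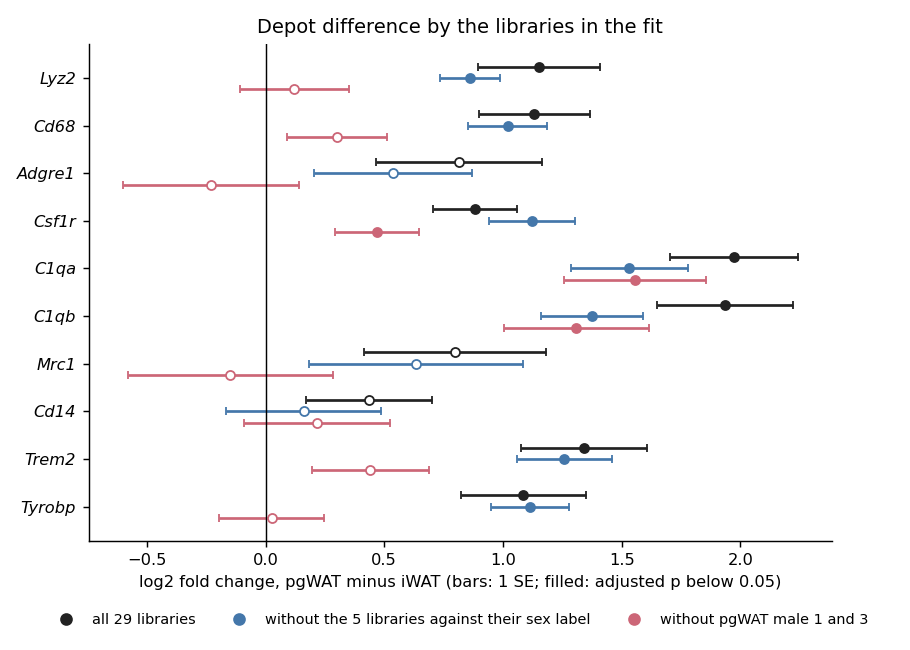
Depot log2 fold change (pgWAT minus iWAT, bars of 1 SE, filled where the adjusted p was below 0.05) of the 10 genes with all 29 libraries, without the 5 libraries against their sex label and without pgWAT male 1 and 3. C1qa and C1qb stay above 1.3 in each fit, and Lyz2 falls from 1.15 to 0.12 in the last.

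Depot and well position were also unevenly crossed. With the well column as a further factor 7 members were called between depots (30.6% of genes). Without column 7, which held pgWAT male 3 and iWAT libraries of both sexes, 5 of 9 tested members were called higher (15.5% of genes called higher), and Csf1r (0.55, SE 0.23, FDR 0.0739) and Tyrobp (0.96, SE 0.40, FDR 0.0778) were not. With limma-voom and all libraries 5 of 10 were called (37.0% of genes), without Lyz2 (0.68, SE 0.28, FDR 0.0566) and Tyrobp (0.67, SE 0.29, FDR 0.0702). Within column 8 alone, iWAT female 6, 7 and 8 met pgWAT female 4, 5 and 6, those that matched their sex label. There 1 of 7 tested members was called, Csf1r (16.0% of genes), and Lyz2 was at 0.09 (SE 0.12, FDR 0.69). Within column 9 alone, iWAT male 3, 6 and 7 met the libraries labelled pgWAT male 2 and 4. There 2 of 8 tested members were called (25.2% of genes), Lyz2 as lower in pgWAT (-0.58, SE 0.16, FDR 0.018) and C1qa as higher (1.87, SE 0.37, FDR 0.00201). Those 2 pgWAT libraries are among those that went against their sex label. Between the iWAT sexes within column 7 alone, 4 of 8 tested members were called (3.23% of genes), Lyz2, Cd68, Csf1r and Tyrobp.

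A list of 45 further macrophage genes was counted beside the members, and it was drawn up with earlier results of these data known. Of these 26 passed the filter on low counts, and 15 of the 26 were higher in pgWAT than in iWAT and 1 was lower, where 20.2% of all genes were called higher. Their median log2 fold change was 0.91. Apart from C1qc the largest rises were those of Itgam, the CD11b integrin chain (1.55, SE 0.28, FDR 4.11e-05), and of the lysosomal protease gene Ctss (1.49, SE 0.25, FDR 1.45e-05). Itgam had means of 16.5, 20.2, 41.2 and 67.6 CPM in iWAT female, iWAT male, pgWAT female and pgWAT male. Between the iWAT sexes 1 of the 26 was called, Mpeg1, which encodes a pore-forming protein of macrophages and was higher in male (1.2044, SE 0.32, FDR 0.0291), against 3.22% of all genes called. Without the 5 libraries against their sex label, 15 of 31 tested genes were higher between depots, 23 of 31 were higher between the pgWAT sexes and 11 of 31 between the iWAT sexes, against 23.7%, 5.63% and 5.84% of all genes called.

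Not all genes that define macrophages were seen. Ptprc, the pan-leukocyte CD45, had 110 counts in all, in 25 of 29 libraries, with means from 3.19 to 14.4 CPM. Spi1 had 8 counts in 5 libraries, Aif1 20, Cd163 23, Vsig4 12, Ccr2 1, Cx3cr1 1 and Timd4 0. The summed level of the list was 1154 to 1798 CPM in iWAT female, 1614 to 2966 in iWAT male, 1023 to 3913 in pgWAT female and 1373 to 8090 in pgWAT male. Gpnmb, a lysosomal membrane protein, held much of that sum, with means from 525.8 to 1453 CPM.

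Markers of other leukocytes were low. The 5 T cell genes summed to at most 15.8 CPM in a library, the 4 B cell genes to at most 22.2, the 4 neutrophil genes to at most 6.95 with S100a9 at 0 in all, the 4 dendritic cell genes to at most 17.0 and the 4 mast cell genes to at most 37.6. None of these passed the filter on low counts. The 4 endothelial genes summed to between 23.8 and 99.3 CPM. Of the 3 tested 1 was higher in pgWAT (20.2% of all genes), Kdr (1.16, SE 0.29, FDR 0.00204). With the 5 libraries against their sex label left out 0 of the 3 were called (23.7% of genes). Their median log2 fold change was -0.32, and Kdr was at 0.84 (SE 0.41, FDR 0.137). Fibroblast genes were far higher than these leukocyte and endothelial lists and moved with the depot too. The 6 fibroblast genes summed to 6382 to 12210 CPM in iWAT and 11690 to 22740 CPM in pgWAT. Of the 6, 5 were higher in pgWAT (20.2% of all genes), among them Col1a1 (1.22, SE 0.18, FDR 2.05e-06), Col3a1 (1.13), Dcn (0.64) and Fn1 (0.63). Without the 5 libraries against their sex label 2 of the 6 were higher and 1 lower (23.7% of genes called). In iWAT 2 of the 6, Col1a1 and Lum, were lower in male (3.22% of all genes called). Of the mesothelial genes, Upk3b (7.22) and Wt1 (4.88) were higher in pgWAT and Krt19 lower (-1.43), and their list summed to 1.955 to 98.4 CPM in iWAT and 46.9 to 147 CPM in pgWAT. The part of these cells in the members' values was not tested.

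The genes whose levels went most closely with Lyz2 were found by Pearson's r of log2 CPM after each labelled group mean had been subtracted. This is a description over 29 libraries that share plate and depth. In pgWAT each labelled group held libraries with and without Y-linked counts, and the difference between these stays in the values. The 5 highest were Gm49339 (0.97), a gene model, Gpnmb (0.96), Laptm5 (0.94), a lysosomal membrane protein of blood cells, Ctss (0.94) and Itgb2 (0.94), an integrin chain of leukocytes. The members themselves followed with r from 0.39 for Csf1r to 0.91 for Cd68 (median 0.74 over 9). Over the 19 iWAT libraries alone those 9 values were lower, from 0.08 to 0.58 (median 0.24), while Laptm5 (0.83) and Gpnmb (0.80) were the 2 highest of all genes.

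The closest genes to the other 9 members were partly macrophage genes. Over 29 libraries the highest were Gpnmb, Smg6 and Lyz2 for Cd68, Ccnd1, Cd36 and Mmp12 for Adgre1, Tubb4b, Cenpf and Zfp131 for Csf1r, C1qb, Sfrp1 and Cfd for C1qa, and Hk3, Ctss and Srpx2 for C1qb. They were Pcdh19, Cfd and Trem2 for Mrc1, Olfml2b, Zfp598 and Ppp1r8 for Cd14, Cd36, Ctss and Lyz2 for Trem2, and Itgb2, Lyz2 and Adam8 for Tyrobp. With those of Lyz2 this made 32 places, of which 5 went to members, 9 to the macrophage list and 18 to genes of neither. Over the 19 iWAT libraries alone, 0 of the 27 places of the 9 members other than Lyz2 went to a member or a gene of the macrophage list, and the r of Ctss with Trem2 was 0.36 against 0.88 over 29. The r of the closest gene was 0.70 for Cd14, 0.72 for Csf1r and between 0.84 and 0.97 for the other 8.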

How the data were processed

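The libraries were 29 wells of cultured SVF in 4 groups by depot and sex, taken from the sample labels. The authors trimmed Smart-seq3 reads (with and without molecular tags), quantified them with Salmon 1.9.0 against Gencode vM32 transcripts (GRCm39) and deposited estimated counts per gene; how transcripts were summed to genes is not given in the sources used here. The expected counts were rounded to whole numbers here. Reads of paralogs, such as Lyz1 and Lyz2, are divided by Salmon's model, and the strand setting is not given in the sources used here.

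Symbols, lengths and coding sequences came from GENCODE M21 and promoters from RefSeq (GRCm38.p6), matched by gene ID or symbol, and 91.354% of features had a symbol. Library sizes were scaled by TMM, genes were filtered with filterByExpr, and 1 term per group was fitted over all 29 libraries with edgeR 4.0.16 in R 4.3.3 (quasi-likelihood F test, two-sided, Benjamini-Hochberg over 8853 genes, FDR below 0.05). Levels are CPM on TMM-scaled totals. The fit was tested on simulated data. Alternatives used limma 3.58.1, DESeq2 1.42.0, other scalings, no filter, well columns and subsets of libraries. Totals of 315316 to 1102234 counts limit precision for the low members.

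The members and lists were chosen with earlier results of these data known. Named beyond the members were up to 4 called genes per list with the largest depot change, Lyz1, Csf1, Il34, C1qc, Ptprc and Itgam, and the genes most like each member (5 for Lyz2, 3 for the others). Genes named for lying at or near 0, Mpeg1, Lum, Syk, Plcg2 and Hcst were added after their values were seen. Some genes of the lists are not reported here.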

Additional observations from a re-analysis of the deposited data

Results flagged for a closer look

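In 40 tests of a member within a group, 3 libraries lay apart from the others of their group by Dixon's criterion, which chance meets in about 1 of 20 groups. Mrc1 was 12.4 CPM in iWAT female 7, with the next library at 6.72 CPM. Trem2 was 45.7 CPM in iWAT female 1, with the next at 29.4 CPM. Tyrobp was 101.3 CPM in iWAT male 9, with the next at 72.5 CPM. None of the 3 is a pgWAT library, and no library was apart for more than 1 member. The criterion seeks 1 library apart from the rest, and is not suited to libraries that stand apart together, as pgWAT male 1 and 3 did. The lack of a flag in pgWAT is therefore no sign that its libraries were alike.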

How the results depend on the processing

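No paired analysis was possible because the replicate numbers were given in accession order and the labels tie no library of one group to one of another. Between depots 3 members were called without pgWAT male 1 and 3 (chosen after seeing the data), and 7 to 9 on leaving out 1 library at a time, where leaving out pgWAT male 2 or pgWAT female 4 gave 9. Within male, limma-voom called 3 (20.1% of all genes called), well column 9 alone 2 (25.2%) and the fit without pgWAT male 1 and 3 called 1 (11.9% of all genes called higher); single omissions gave 3 (without pgWAT male 1 or 3) to 6. Within female, limma-voom called 3 (24.3%), and the column factor (19.2%), the fit without the libraries against their sex label (18.3%) and column 8 alone (16.0%) each called 1; single omissions gave 3 (without pgWAT female 2 or 3) to 6. Between the iWAT sexes no filter gave 6 (1.92%), DESeq2 4 (4.43%), the column factor 7 (5.6%), the fit without the libraries against their sex label 7, column 7 alone 4, iWAT alone 6 (5.68%) and the fit without pgWAT male 1 and 3 called 5 (4.64%); single omissions gave 2 to 4, the latter without pgWAT male 2 or 3, and 3 without iWAT female 1 or pgWAT male 4. Between the pgWAT sexes no filter gave 4 (0.223%), the column factor 6 (0.655%) and the fit without the libraries against their sex label 8 (5.63%); single omissions gave 0 to 1, the 1 without pgWAT male 4. The interaction called 6 without the libraries against their sex label (2.56%), 3 below 0 without pgWAT male 1 and 3 (2.0%), and 0 on each single omission. The Lyz2 depot difference was 0.68 with limma-voom (FDR 0.0566), 0.12 without pgWAT male 1 and 3, 0.093 in column 8 alone, -0.58 in column 9 alone, and 0.91 to 1.31 on single omissions. Without pgWAT male 1 and 3 the depot values of Adgre1 and Mrc1 turned to -0.23 and -0.15. C1qa between the iWAT sexes was -0.065 with limma-voom and -0.25 to 0.14 on single omissions. The r of Gm49339 with Lyz2 was 0.784 in the 19 iWAT libraries. The causes were not tested. Among the summary results, 241 other values kept their direction and side of the threshold. At these depths, members below about 10 CPM rest on few counts per library.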
